A study of Mus musculus with 96 samples.

Results

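Tbr1, Neurod2, Neurod6, Fezf2, Bcl11a, Bcl11b, Emx1, Emx2 and Lhx2 encode transcription factors of the excitatory projection neurons of the cerebral cortex. They were chosen as a named list of 9 genes, out of 18807 genes that carried 1 symbol on the array and 28310 transcript clusters in all, where a transcript cluster is the set of probes that the array reads as 1 gene. Each of the 9 genes had exactly 1 such cluster, so all 9 were measured on every array and none was lost to a filter. RNA came from 16 male mice of 14 weeks, 8 of the strain NOD/ShiLtJ and 8 of C57BL/6J. NOD/ShiLtJ mice are inbred and prone to autoimmune diabetes, and C57BL/6J is a standard laboratory strain. In each strain 4 mice received an injection of clozapine, an antipsychotic drug, at 4 mg/kg and 4 received the vehicle, and all were killed 3 hours later.

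From 1 hemisphere of each mouse the hindbrain and the forebrain were taken apart, and the other hemisphere was kept intact and called whole brain, so that whole brain was a mixture of the parts. The cerebellum had been removed and the olfactory bulbs had stayed on. The same 48 RNA samples were run on the 1.1ST and on the 1.0ST format of an Affymetrix gene array, and values below are log2 intensities of the 1.1ST arrays unless the 1.0ST arrays are named. A log2 intensity compares the same probes between samples, and levels of different genes were not compared. The array batch and the hemisphere that was dissected are not in the labels used here. Markers of the thalamus, which is a forebrain structure, were higher in the dissected hindbrain, where their mean lay between 8.46 and 9.46, against 6.97 to 8.03 in forebrain, without overlap. The sample called hindbrain therefore had a higher mean level of these marker genes than the sample called forebrain. The tissue from which those transcripts came was not tested. In such bulk tissue, fewer cells of a type and less RNA in each cell cannot be told apart.

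In the embryo these factors act in the pallium, the roof of the telencephalon from which the cortex and the hippocampus form. Emx1, Emx2 and Lhx2 are homeodomain factors of the dividing precursors, in which Lhx2 and Emx2 help to set cortical identity and the layout of cortical areas. Neurod2 and Neurod6 are basic helix-loop-helix factors switched on as precursors leave the cell cycle, and Tbr1 is a T-box factor of the early-born neurons that project to the thalamus. Fezf2 and Bcl11b are zinc finger factors of the deep-layer neurons that project to the brainstem and spinal cord, and Bcl11a is a relative of Bcl11b found in many cortical neurons. Part of this expression persists in the adult. Several of the genes are also used outside the cortex, such as Bcl11b in projection neurons of the striatum.

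Since several of the 9 factors act on the promoters of other neuronal genes, their own promoters were searched for a core motif of 3 of the factor classes, and no motif was searched for the zinc finger factors. RefSeq lists 10 promoters of 300 bases for the 9 genes on build GRCm38.p6, with a pair for Lhx2. The motifs, read on both strands, were CAGATG for helix-loop-helix factors, TCACACC for T-box factors and TAATTA for homeodomain factors, and no match overlapped another. Capitals mark a match, which reads CATCTG in Lhx2 and GGTGTGA in Bcl11a because it lies on the other strand, and all sequences run 5′ to 3′ on the strand of the gene. The stretches that hold a match are shown, as the 250 bases before the start for Tbr1 (plus strand, chr2:61804203-61804452) and Neurod2 (minus strand, chr11:98329646-98329895), and as 30 bases after the start for Emx2 (plus strand, chr19:59458710-59458739), Bcl11a (plus strand, chr11:24080705-24080734) and the downstream promoter of Lhx2 (plus strand, chr2:38351321-38351350).
Tbr1: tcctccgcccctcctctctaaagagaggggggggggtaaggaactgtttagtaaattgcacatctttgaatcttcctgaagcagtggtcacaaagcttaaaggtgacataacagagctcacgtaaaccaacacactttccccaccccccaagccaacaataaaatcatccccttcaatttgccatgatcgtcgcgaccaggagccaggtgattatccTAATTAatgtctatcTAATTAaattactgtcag
Neurod2: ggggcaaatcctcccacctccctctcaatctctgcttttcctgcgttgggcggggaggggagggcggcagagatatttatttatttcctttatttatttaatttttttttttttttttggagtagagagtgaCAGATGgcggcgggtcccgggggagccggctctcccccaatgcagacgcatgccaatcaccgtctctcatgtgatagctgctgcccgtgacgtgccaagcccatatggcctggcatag
Emx2: tatgtgatccccgcacTAATTAggctcatg
Bcl11a: cggcgcgcgacGGTGTGAagttacagcccg
Lhx2: gagacgtgcaggCATCTGggccgccgcggg
TAATTA stood 33 and 18 bases before the start of Tbr1 and 37 bases after that of Emx2, and 5.29% of all 32851 mouse promoters of this length held it. CAGATG stood 118 bases before the start of Neurod2 and 26 bases after the downstream start of Lhx2, against 17.2% of all promoters. TCACACC was found in the Bcl11a promoter alone of the 10, against 3.98% of all promoters. The promoters of Neurod6, Fezf2, Emx1 and Bcl11b and the upstream promoter of Lhx2 held none of these letters. A match describes the sequence only.

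Hindbrain was compared with forebrain to ask how strongly each factor separates the dissected hindbrain from the forebrain, which holds the cortex. All 9 genes were lower in hindbrain than in forebrain, in 16 of 16 mice each. The per-mouse difference averaged between -4.14 (Tbr1) and -0.91 (Emx1) on the log2 scale, which is a 17.6-fold and a 1.88-fold lower measured intensity. The files give no detection call, so whether the lowest hindbrain values lay above background was not tested, and a fold from a value at background would be too small. As a rough guide to the low end of the scale, the hindbrain means of 3 pituitary hormone genes were 4.33 (Prl), 4.84 (Pomc) and 5.39 (Gh).

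**Figure D1:**
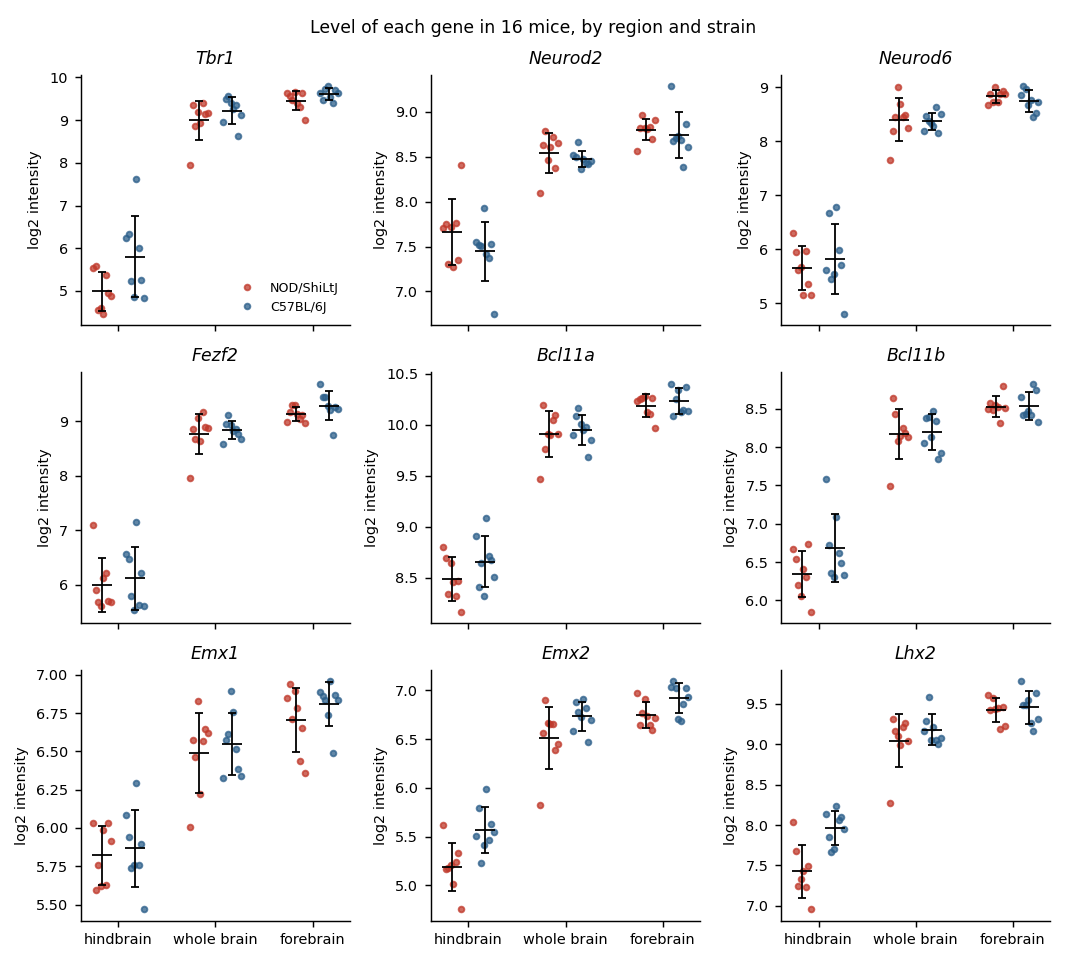
Each panel plots the log2 intensity of 1 gene, with hindbrain, whole brain and forebrain from left to right and 1 point per mouse (red NOD/ShiLtJ, blue C57BL/6J, 8 each). Black bars are the mean and the SD. Hindbrain lies below forebrain in every panel, with a touch of overlap only for Neurod2, and 1 NOD/ShiLtJ whole brain (mouse DD656) lies lowest in every panel.

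Among the precursor factors, Lhx2 had the widest difference. Its lowest, median and highest values were 6.96, 7.69 and 8.23 in hindbrain, against 9.16, 9.45 and 9.78 in forebrain. No hindbrain reached the lowest forebrain, and the per-mouse difference was -1.74 ± 0.37 (SD, n = 16). Emx2 measured 4.75, 5.37 and 5.99 in hindbrain, against 6.60, 6.81 and 7.09 in forebrain, a difference of -1.45 ± 0.29. Emx1, whose expression in the brain is nearly confined to pallial cells, gave the narrowest gap of the 9 genes, with 5.47, 5.83 and 6.29 in hindbrain, against 6.36, 6.84 and 6.96 in forebrain and a difference of -0.91 ± 0.26. The highest hindbrain stood 0.07 below the lowest forebrain for Emx1, so the groups were apart by less than the spread within either.

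Tbr1 and Neurod6 had, together with Fezf2, the largest mean differences of the 9. Tbr1 measured 4.46, 5.24 and 7.62 in hindbrain, against 9.00, 9.60 and 9.80 in forebrain. The difference was -4.14 ± 0.85, and its SD was the widest of the 9 because hindbrain values of Tbr1 were spread over more than 3 log2 units while forebrain values stayed within 1 unit. Neurod6 measured 4.80, 5.65 and 6.79 in hindbrain, against 8.44, 8.81 and 9.02 in forebrain, a difference of -3.06 ± 0.56. Its close relative Neurod2 had a smaller mean difference, at 6.75, 7.52 and 8.40 in hindbrain, against 8.39, 8.77 and 9.28 in forebrain, a difference of -1.22 ± 0.36. Neurod2 was the 1 gene whose groups overlapped, through a single hindbrain (NOD/ShiLtJ mouse DD678) that lay just above the lowest forebrain.

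Among the zinc finger factors, Fezf2 separated the regions most. It measured 5.54, 5.85 and 7.15 in hindbrain, against 8.75, 9.22 and 9.68 in forebrain, a difference of -3.14 ± 0.54 or 8.81-fold. Bcl11b measured 5.85, 6.45 and 7.59 in hindbrain, against 8.31, 8.50 and 8.83 in forebrain, and differed by -2.02 ± 0.39 or 4.05-fold. Bcl11a measured 8.17, 8.57 and 9.08 in hindbrain, against 9.97, 10.2 and 10.4 in forebrain, with the steadiest difference of the 9 genes, -1.64 ± 0.23 or 3.11-fold. None of the 3 genes overlapped between the regions.

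**Figure D2:**
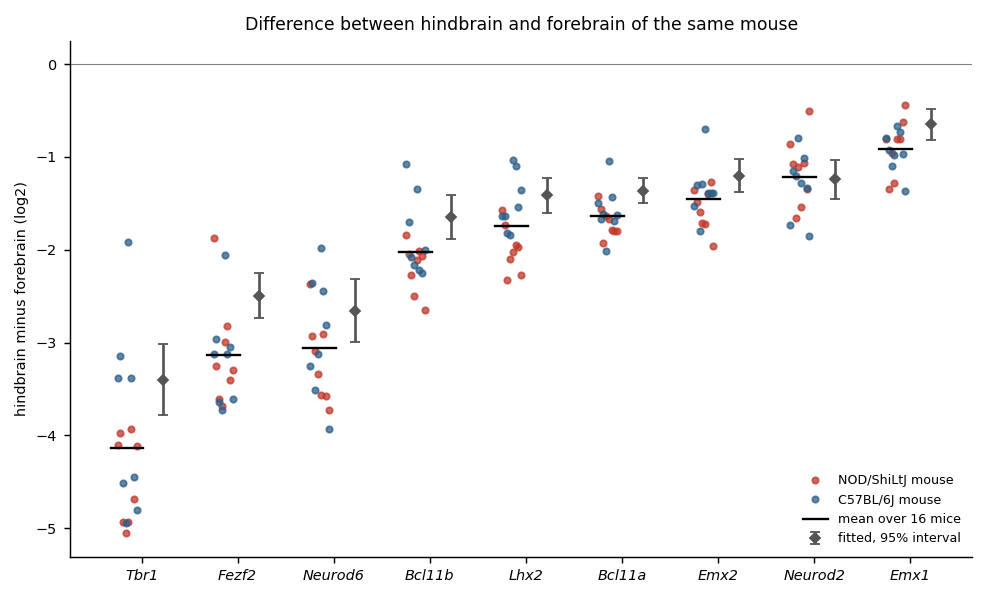
Points give hindbrain minus forebrain of the same mouse on the log2 scale for each gene (red NOD/ShiLtJ, blue C57BL/6J), black lines the mean over 16 mice, and grey diamonds the fitted difference with its 95% interval. All points lie below 0, from -5.05 for Tbr1 to -0.44 for Emx1, and the fitted values lie nearer to 0 than the means except for Neurod2.

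In the limma fit over all clusters, which had a mean for each of the 6 combinations of strain and region, a treatment effect and 5 surrogate variables, and took the mouse as a random block, all 9 genes were called lower in hindbrain at a false discovery rate (FDR) below 0.05. Over all clusters 19.7% were called lower and 27.5% higher (5576 and 7778 clusters), and with each array centred on its median 9849 were called lower and 6701 higher, the 9 genes staying among those called lower. The fitted difference was -3.40 (SE 0.19, FDR = 1.12e-18) for Tbr1, -2.66 (SE 0.17) for Neurod6, -2.50 (SE 0.12) for Fezf2, -1.64 (SE 0.12) for Bcl11b and -1.41 (SE 0.09) for Lhx2. It was -1.36 (SE 0.07) for Bcl11a, -1.24 (SE 0.11) for Neurod2, -1.20 (SE 0.09) for Emx2 and -0.65 (SE 0.08, FDR = 3.47e-09) for Emx1. Fitted values were smaller than the mean differences for the 8 genes other than Neurod2, because surrogate variables carried part of the difference between regions. Each surrogate variable is the main expression pattern of many transcripts, which were chosen because they followed a pattern in the residuals. The hindbrain and forebrain groups did not overlap for 8 of the 9 genes, against 4.24% of all clusters, and on the 1.0ST arrays for 9 of 9, against 3.78%. On the 1.0ST arrays all 9 genes were again called lower, with smaller mean differences of -3.63 for Tbr1, -2.07 for Fezf2, -1.32 for Bcl11b and -0.45 for Emx1.

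Hindbrain was also below whole brain for all 9 genes, with fitted differences between -3.26 (Tbr1) and -0.50 (Emx1). All 9 were called, against 17.4% of clusters called lower. Whole brain lay much closer to forebrain. The per-mouse difference of whole brain from forebrain averaged between -0.43 (Tbr1) and -0.21 (Emx2), and the order forebrain over whole brain over hindbrain held in 11 mice for Emx1, in 15 for Neurod2, Neurod6 and Bcl11a, and in 12 to 14 for the other 5. In the fit 4 of 9 genes were called lower in whole brain than in forebrain, against 5.89% of clusters. These were Neurod2 (-0.27, SE 0.08, FDR = 0.0125), Lhx2 (-0.23, SE 0.07, FDR = 0.0174), Bcl11a (-0.16, SE 0.05, FDR = 0.0189) and Bcl11b (-0.24, SE 0.09, FDR = 0.0487). Tbr1, with the largest mean difference, was not called (-0.14, 95% interval -0.43 to 0.15). The count was 9 without surrogate variables and 0 on the 1.0ST arrays, and with 1 mouse left out it ran between 0 and 8.

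Because whole brain holds both parts, each whole brain can be placed on a linear intensity scale where its own forebrain is 0% and its own hindbrain is 100%. The median place lay between 21.3% (Bcl11a) and 33.9% (Emx1) over the 9 genes. Each gene also had places below 0%, where a whole brain lay above its forebrain. They went down to -74.1% for Emx1, the gene with the narrowest gap between regions, so its places are the least precise. Mouse DD656, a NOD/ShiLtJ mouse, stood at the hindbrain end of this scale. Its whole brain had the place closest to hindbrain for all 9 genes, between 62.2% (Neurod6) and 103% (Emx1), and on the 1.0ST arrays for 8 of 9. For Lhx2 its place was 90.8%, with the next mouse at 54.0%. The gap was narrower for Neurod2 (62.2%, next mouse 58.9%), Bcl11b (69.7%, next 64.9%) and Fezf2 (69.1%, next 60.5%). The 9 places come from the same 3 samples of 1 mouse and are not repeats. The whole brain of DD656 had the lowest level of all 16 for every gene, for example 7.96 for Tbr1, where the next lowest was 8.63. Without that mouse the difference of Tbr1 between whole brain and forebrain was -0.34 ± 0.33 (SD, n = 15), in place of -0.43 ± 0.46.

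**Figure D3:**
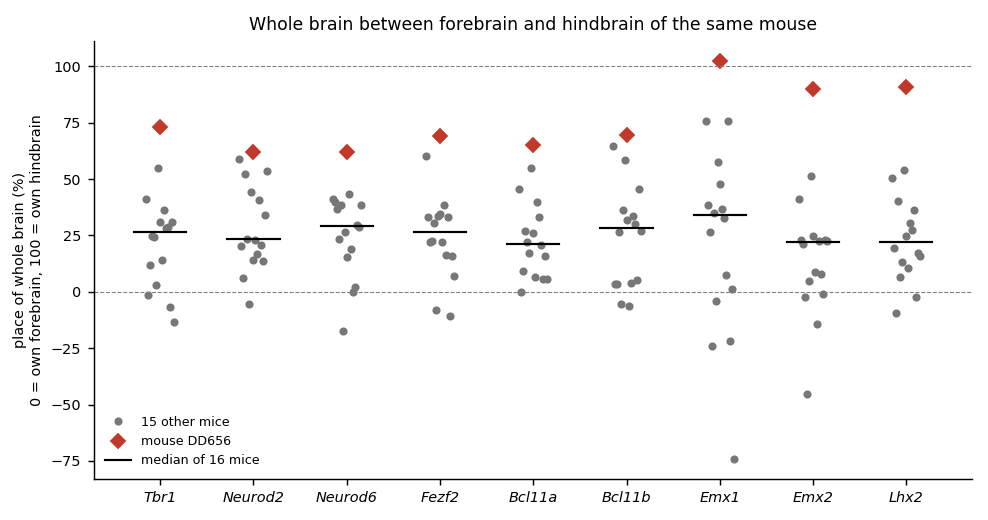
Each point places the whole brain of 1 mouse between its own forebrain (0%) and its own hindbrain (100%) for 1 gene, on a linear intensity scale. Black lines are the medians over 16 mice, between 21.3% and 33.9%, and red diamonds mark mouse DD656, at 62.2% to 103%. Some points lie below 0%, the lowest at -74.1% for Emx1.

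Strain was compared within each region. By the labels, all NOD/ShiLtJ mice came from larger litters than any C57BL/6J mouse, so strain and litter size cannot be told apart. In hindbrain 3 of 9 genes were called lower in NOD/ShiLtJ than in C57BL/6J, against 8.69% of clusters called lower, and none was called higher. Tbr1 measured 4.46, 4.92 and 5.59 (lowest, median, highest) in NOD/ShiLtJ hindbrains, against 4.83, 5.63 and 7.62 in C57BL/6J. The strains overlapped, and 4 of the 8 C57BL/6J hindbrains lay above all NOD/ShiLtJ ones. The fitted difference of Tbr1 was -0.78 (SE 0.20, FDR = 0.00284, 8 mice a strain). The fit takes 1 residual variance per gene over all regions, and Tbr1 was spread more widely in hindbrain than in forebrain. Its SD was 0.45 in NOD/ShiLtJ and 0.95 in C57BL/6J hindbrains, against 0.22 and 0.14 in the forebrains. This SE can therefore be too small and the FDR too low for hindbrain. Lhx2 measured 6.96, 7.38 and 8.03 in NOD/ShiLtJ hindbrains, against 7.67, 8.01 and 8.23 in C57BL/6J, a fitted difference of -0.38 (SE 0.10, FDR = 0.00287). Emx2 measured 4.75, 5.19 and 5.62 in NOD/ShiLtJ hindbrains, against 5.23, 5.52 and 5.99 in C57BL/6J, with a fitted difference of -0.25 (SE 0.09, FDR = 0.0371). These values pool clozapine and vehicle mice, 4 each a strain. With vehicle, NOD/ShiLtJ and C57BL/6J hindbrains averaged 5.17 and 5.41 for Tbr1, 7.64 and 7.89 for Lhx2, and 5.33 and 5.55 for Emx2. With clozapine they averaged 4.82 and 6.19, 7.22 and 8.03, and 5.05 and 5.59. On the 1.0ST arrays Tbr1 averaged 6.42 and 7.02 with vehicle, and 6.63 and 6.91 with clozapine. Whether the strain difference changed with treatment was not tested.

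The 1.0ST arrays of the same RNA kept 1 of these calls. There Tbr1 averaged 6.52 ± 0.25 in NOD/ShiLtJ hindbrains and 6.97 ± 0.66 in C57BL/6J (SD, n = 8 each), with a fitted difference of -0.30 (FDR = 0.0433). Lhx2 averaged 8.50 ± 0.31 in NOD/ShiLtJ and 8.84 ± 0.25 in C57BL/6J, and its fitted difference of -0.14 was not called (FDR = 0.135). Emx2 averaged 6.99 ± 0.10 in NOD/ShiLtJ and 6.99 ± 0.17 in C57BL/6J, and its fitted difference turned to 0.09. On the 1.1ST arrays Emx2 also lost its call with arrays centred on the median, under the Benjamini-Hochberg adjustment, and without mouse DD659 or BB686. In the fit of the hindbrains alone, without the other regions, Tbr1 lost its call (FDR = 0.124). Markers of other cells in the hindbrains were set side by side by strain, with no test, and not all of the 13 lists are given. The mean of 5 thalamus markers was 8.58 ± 0.10 in NOD/ShiLtJ and 8.97 ± 0.28 in C57BL/6J, with ranges of 8.46 to 8.80 and 8.68 to 9.46. The mean of 8 interneuron markers was 8.32 ± 0.14 in NOD/ShiLtJ and 8.59 ± 0.18 in C57BL/6J, and that of 5 brainstem neuron markers was 8.69 ± 0.43 in NOD/ShiLtJ and 8.28 ± 0.36 in C57BL/6J. The mean of 4 astrocyte markers was 10.2 ± 0.10 in NOD/ShiLtJ and 10.1 ± 0.09 in C57BL/6J, with ranges of 10.07 to 10.33 and 9.98 to 10.25. In the same order of strains, cerebellum markers averaged 8.17 ± 1.42 and 7.47 ± 0.85, and striatal neuron markers 7.56 ± 0.12 and 7.91 ± 0.52. Slc17a7, a glutamate transporter of cortical neurons, averaged 9.68 ± 0.24 in NOD/ShiLtJ and 9.75 ± 0.40 in C57BL/6J. The part of these markers in the strain differences was not tested.

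In forebrain 0 of 9 genes were called between strains, against 17.7% of clusters, with fitted differences between -0.09 (Emx2) and 0.17 (Neurod6) and none at an unadjusted p under 0.05. In whole brain 0 of 9 were called, against 18.0% of clusters, and 1 gene, Emx2, had an unadjusted p under 0.05 (fitted difference -0.19, SE 0.09, FDR = 0.0867). A mixed model for each transcript called 0 genes in either region. On the 1.0ST arrays 1 gene was called in each, Bcl11b as higher in NOD/ShiLtJ forebrain (0.21, SE 0.06, FDR = 0.00675) and Emx2 as lower in NOD/ShiLtJ whole brain (-0.19, SE 0.05, FDR = 0.00143). The 95% intervals of Tbr1 were -0.35 to 0.41 in forebrain, -0.53 to 0.21 in whole brain and -1.18 to -0.37 in hindbrain. The hindbrain interval overlapped that of whole brain but not that of forebrain. The interaction term of hindbrain against forebrain, given below, was not called for Tbr1.

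**Figure D4:**
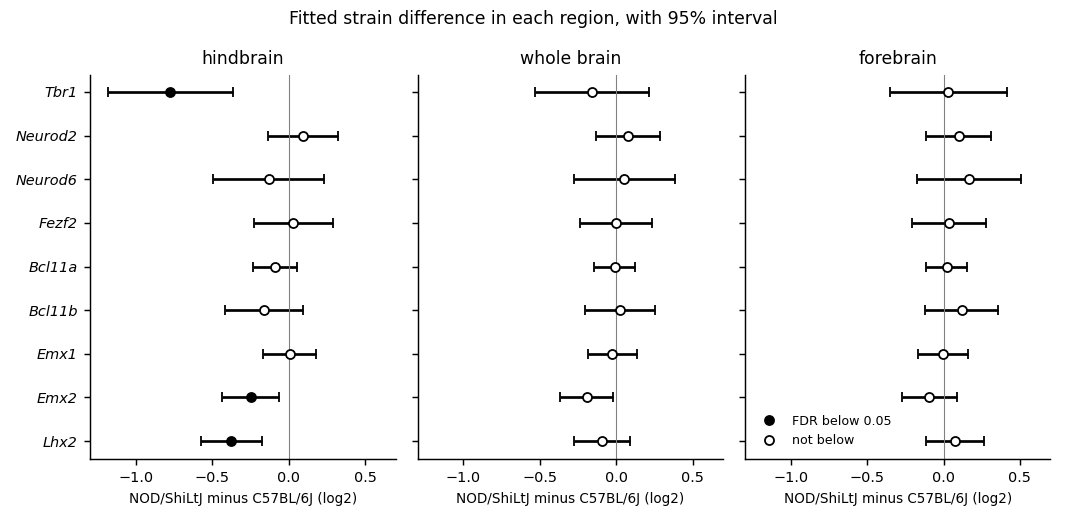
Fitted difference NOD/ShiLtJ minus C57BL/6J (log2) with its 95% interval for each gene in hindbrain, whole brain and forebrain, from left to right. Filled points have an FDR below 0.05, which holds for Tbr1, Emx2 and Lhx2 in hindbrain and for no gene in whole brain or forebrain.

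Whether the strain difference itself changed with region was tested by an interaction term. Lhx2 was the 1 gene called for hindbrain against forebrain (-0.45, SE 0.13, FDR = 0.0446), against 2.29% of clusters. The term of Tbr1 was larger and less precise (-0.81, SE 0.27) and was not called (FDR = 0.0932). Lhx2 lost its call without surrogate variables, without the replicate block, on the 1.0ST arrays and in the mixed model. For whole brain against forebrain 0 of 9 genes were called, 0 had an unadjusted p under 0.05, and 0% of clusters were called.

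Clozapine was compared with vehicle over all regions and strains. None of the 9 genes was called, against 2.92% of clusters (828 of 28310). The mixed model and a fit on 1 mean per mouse called 0 of the 9 as well, against only 15 and 12 of all clusters. Fitted differences lay between -0.01 (Neurod6) and 0.15 (Bcl11b, SE 0.07), and Bcl11b was the 1 gene at an unadjusted p under 0.05 (FDR = 0.254). All 95% intervals lay within -0.22 and 0.33, and since the fit counts the 3 samples of a mouse almost as separate mice these intervals can be too narrow. The fitted effect pools strains and regions. In hindbrain each gene was higher with clozapine in C57BL/6J, and most were lower in NOD/ShiLtJ, other than Neurod2 (0.06) and Emx1 (0.003). Tbr1, for example, differed by 0.78 in C57BL/6J and -0.35 in NOD/ShiLtJ, and on the 1.0ST arrays by -0.11 and 0.21. Whether the response differed by strain was not tested. Within the 6 groups of strain and region, 4 clozapine mice were set against 4 vehicle mice. Clozapine and vehicle did not overlap in 2 of 54 such groups of the 9 genes (3.70%), against 3.42% over all clusters, so the share was near the background. Bcl11a in NOD/ShiLtJ hindbrain lay between 8.17 and 8.46 with clozapine, against 8.47 to 8.81 with vehicle, and its groups did not overlap on the 1.0ST arrays either (9.51 to 9.83 with clozapine, against 9.92 to 10.0 with vehicle). Tbr1 in NOD/ShiLtJ forebrain lay between 9.00 and 9.48 with clozapine, against 9.56 to 9.65 with vehicle, and overlapped on the 1.0ST arrays. On the 1.0ST arrays 3 of 54 such groups did not overlap, against 5865 of 169860 over all clusters. Besides Bcl11a these were Neurod2 in NOD/ShiLtJ forebrain and whole brain, both higher with clozapine.

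The measured levels of these genes differed among the hindbrains, and most of the factors moved together on these arrays. On the other array format of the same RNA none of the correlations with Tbr1 passed, as given below. Over 16 hindbrains Tbr1 correlated with Neurod6 (r = 0.78, rho = 0.73, adjusted permutation p = 0.00272), Emx2 (r = 0.73, rho = 0.62), Bcl11b (r = 0.72, rho = 0.73) and Fezf2 (r = 0.71, rho = 0.66). It also correlated with Bcl11a (r = 0.68, rho = 0.56), Lhx2 (r = 0.67, rho = 0.64) and Emx1 (r = 0.55, rho = 0.37, adjusted permutation p = 0.0286). These 7 of the 8 genes passed a Benjamini-Hochberg adjustment over the 8 tests. Neurod2 did not follow Tbr1 (r = -0.03, rho = 0.19, adjusted permutation p = 0.899). C57BL/6J mouse BB702 had the highest hindbrain level of Tbr1 (7.62), and also of Neurod6, Fezf2, Bcl11a, Emx1, Emx2 and Lhx2.

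Without BB686 and BB702, the mice farthest from the median of Tbr1, 3 genes still passed, namely Bcl11b (r = 0.73), Bcl11a (r = 0.67) and Lhx2 (r = 0.64). The other genes that had passed no longer did. Fezf2 (r = 0.46), Emx2 (r = 0.46) and Emx1 (r = 0.21) passed only with those mice. Neurod6 kept r = 0.55 and rho = 0.60 and missed the threshold after adjustment (adjusted permutation p = 0.0812). Within C57BL/6J (n = 8, exact permutation test) 3 genes passed, Emx1 (r = 0.87), Fezf2 (r = 0.87) and Neurod6 (r = 0.84). Within NOD/ShiLtJ (n = 8, exact permutation test) none passed, with r between -0.15 (Emx1) and 0.74 (Neurod6). On the 1.0ST arrays 0 of 8 genes passed, Bcl11b coming nearest (r = 0.64, adjusted permutation p = 0.0533). There the hindbrain values of a gene followed those of the 1.1ST arrays closely for Lhx2 (r = 0.79) and loosely for Tbr1 (r = 0.34), Fezf2 (r = 0.09) and Emx1 (r = 0.03), whereas for Tbr1 the formats ranked forebrains (r = 0.91) and whole brains (r = 0.97) in nearly the same way.

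**Figure D5:**
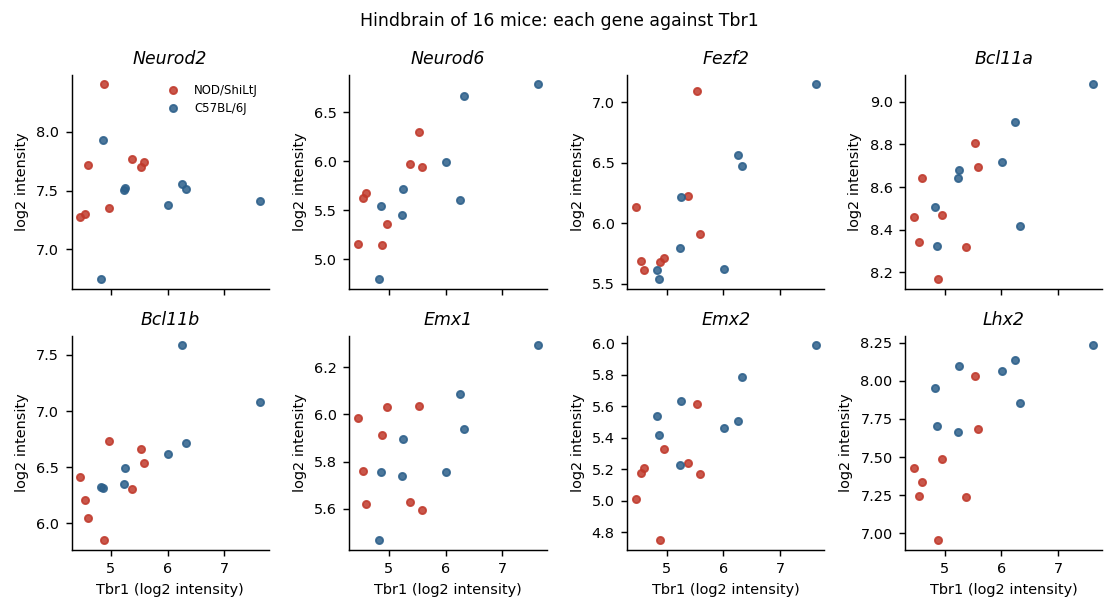
Each panel plots 1 gene against Tbr1 (both as log2 intensity) over the hindbrains of 16 mice (red NOD/ShiLtJ, blue C57BL/6J). The 7 genes other than Neurod2 rise with Tbr1, with mouse BB702 at the right end of each panel, and Neurod2 does not (r = -0.03).

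In forebrains 3 of the 8 genes passed, Bcl11a (r = 0.80), Emx1 (r = 0.71) and Lhx2 (r = 0.60), and none of the 8 passed without the 2 farthest mice. Whether the correlations differed between regions was not tested. In whole brains all 8 genes passed, but only 2, Bcl11a (r = 0.85) and Fezf2 (r = 0.71), did so without mouse DD656. Marker lists of other cells were set beside the mean of the 9 genes over the hindbrains. Of 13 lists, the mean of 5 hippocampus markers rose with it (r = 0.66, rho = 0.76, adjusted permutation p = 0.0382) and that of 4 astrocyte markers fell with it (r = -0.72, rho = -0.68, adjusted permutation p = 0.0173). Without the 2 farthest mice, here BB685 and BB702, the hippocampus list still passed (r = 0.85) and the astrocyte list did not (r = -0.63, adjusted permutation p = 0.0963). The hippocampus list spanned 7.07 to 7.52 over the hindbrains and the astrocyte list 9.98 to 10.3. The hippocampus list hardly separated the regions, with a mean of 7.26 in hindbrain and 7.48 in forebrain, and its genes were split. Prox1 (8.68 against 8.05) and C1ql2 (7.35 against 6.75) were higher in hindbrain than in forebrain. Wfs1 (8.93 against 10.0), Fibcd1 (6.29 against 6.72) and Dsp (5.04 against 5.88) were lower. Their part in the spread of the 9 genes was not tested.

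The labelled regions were checked against these lists, and the thalamus list, given above, ran against its label. Slc17a7, the vesicular glutamate transporter of cortical neurons, averaged 9.72 ± 0.32 in hindbrain and 11.8 ± 0.11 in forebrain, and 5 brainstem neuron markers averaged 8.49 ± 0.44 in hindbrain and 5.18 ± 0.44 in forebrain. Cerebellum markers, of a tissue that had been removed, spanned 6.75 to 10.3 over the hindbrains and 6.01 to 7.25 over the forebrains. Over hindbrains that list had r = -0.48 with the mean of the 9 genes, which did not pass (adjusted permutation p = 0.149).

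Over all 48 arrays each of the 9 genes followed the mean of the other 8 closely, from r = 0.99 for Fezf2 to r = 0.92 for Emx1 and 0.88 for Neurod2. Those values share the difference between regions. After the means of the 12 groups of region, strain and treatment were removed, Fezf2 (r = 0.87) and Tbr1 (r = 0.80) were still the closest to the others and Neurod2 (r = 0.17) the farthest. The genes most like the mean of the 9 over the 48 arrays were Ankrd33b, Mpped1, Kcnh3, a potassium channel, Enc1, Chrm1, a muscarinic acetylcholine receptor, and Vipr1, a receptor for vasoactive intestinal peptide (r = 0.99 each). With group means removed, Vipr1 (r = 0.94), Enc1 (r = 0.89), Ankrd33b (r = 0.88), Mpped1 (r = 0.87), Itpka (r = 0.86) and Chrm1 (r = 0.85) were nearest. For single genes, Emx2 was most like Fam81a, Enc1 and Mlip (r = 0.98, 0.97 and 0.97), Lhx2 was most like Enc1, Chrm1 and Icam5 (r = 0.98 each), and Bcl11a was most like Cacng3, Celf5 and Kcnh3 (r = 0.99 each). Enc1, for example, averaged 9.42 in hindbrain and 11.1 in forebrain.

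Other transcription factors of pallial neurons moved in both directions. Of 36 listed, 33 were measured, and 22 of them were lower and 3 higher in hindbrain than in forebrain, against 19.7% of all clusters lower and 27.5% higher, with a median fitted difference of -0.37, against 0.02 over all clusters. The largest decreases were in Mef2c (-1.74, SE 0.09), a factor of excitatory synapse development, Zbtb18 (-1.40, SE 0.08), Nr4a2 (-1.34, SE 0.16) and Lmo4 (-1.19, SE 0.06). Lef1 (0.79, SE 0.10), which also marks the thalamus, Foxp2 (0.37, SE 0.09) and Prox1 (0.27, SE 0.11), which also marks granule cells of the dentate gyrus, were higher in hindbrain. The sign of Prox1 turned on the 1.0ST arrays (-0.0831) and without mouse DD676 (-0.0136). Pax6 (0.01), Nfia (0.05), Neurog2 (0.06) and Tshz2 (0.06) were not called. Of 20 genes that mark classes of projection neurons without being transcription factors, 19 were measured, and 14 were lower and 2 higher, against the same shares of all clusters, with a median of -0.57. Slc17a7 (-1.85, SE 0.10), Rgs14 (-1.76, SE 0.12), Nrgn (-1.39, SE 0.11), which binds calmodulin, and Crym (-1.35, SE 0.20) fell most. Cdh18 (0.36, SE 0.04) and Crim1 (0.18, SE 0.05) were higher in hindbrain, and Ntsr1 (0.03), a marker of neurons that project to the thalamus, and S100a10 (0.09) were not called.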

How the data were processed

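Per the labels and the study's methods, the authors extracted RNA from 3 samples of each of 16 mice, hybridised it to both array formats and computed the deposited log2 intensities by RMA in Affymetrix Expression Console 1.1. All 28310 transcript clusters of 48 arrays per format were used. Clusters were named through GEO's platform annotation and RefSeq: 21207 carried 1 symbol, 1867 several and 5236 none, and 111 whose gene differed between the formats' tables were left unnamed. No array was rescaled.

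Differences were fitted on the 1.1ST arrays with limma 3.58.1 and statmod 1.5.0 in R 4.3.3, with means of the 6 groups of strain and region, treatment, 5 surrogate variables built from 1000 transcripts each after the study's methods but without the batch, which the labels do not give, and the mouse as random block (consensus correlation 0.0310). Region differences were averaged over strains. Tests were two-sided. The FDR was computed over all clusters by the study's own formula. The replicate number is the mouse number, so the 3 regions are paired by animal, and the mean correlation of residuals within a mouse was 0.0657 (forebrain and hindbrain), 0.0274 (forebrain and whole brain) and -0.0111 (hindbrain and whole brain). At this low correlation the 3 samples of a mouse count almost as separate mice for clozapine, whose SE can be too small. The model was also run on simulated data that held no hidden factor and had the same spread in every region. That run cannot tell how the surrogate variables or an unequal spread between regions act in the real data. Correlations were tested by 100000 permutations (16 mice) or all 40320 orders (8 mice) with scipy 1.17.1. Mixed models used lme4 1.1.37 and lmerTest 3.1.3.

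The 9 genes, the gene lists, the markers and the motifs were chosen with earlier results of these data known. Named beyond the 9 are the 6 genes most like their mean, the 6 most like it with group means removed, 3 each for Emx2, Lhx2 and Bcl11a, and from each list up to 4 called genes in each direction and those against the majority. Alternatives were the 1.0ST arrays, no or unrefined surrogate variables, no or a fixed replicate block, the Benjamini-Hochberg adjustment, mixed models, arrays centred on their median, the hour of kill, only clusters of 1 symbol or of a mean above 5, single strains or regions, 1 mean per mouse, and each mouse or the whole brain of DD656 left out. Precision is limited by how many arrays there were.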

Additional observations from a re-analysis of the deposited data

Results flagged for a closer look

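Within the 54 groups of 8 mice of a gene, region and strain, 7 held a sample far from the rest, by its gap to the nearest sample as a share of the whole range of the group, judged against Dixon's 95% critical value, which chance passes in about 1 in 20 groups. The 9 genes were read on the same arrays, so these groups are not independent and 1 odd sample can be flagged for several genes. The whole brain of NOD/ShiLtJ mouse DD656 was such a lowest value for Tbr1 (gap share 0.625, at 7.96 with the next at 8.86), Lhx2 (0.690), Fezf2 (0.558) and Emx2 (0.528), and its hindbrain was the highest of its strain for Fezf2 (0.587, at 7.10 with the next at 6.23). For Neurod2, the hindbrain of C57BL/6J mouse BB708 was far below the others (0.533, at 6.75 with the next at 7.38), and that of NOD/ShiLtJ mouse DD678 far above (0.565, at 8.40 with the next at 7.76).

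The strain difference of Lhx2 was more negative in hindbrain than in forebrain by the interaction term (-0.45, SE 0.13, FDR = 0.0446), but the call was lost under 8 of 13 other settings, among them no replicate block, a fixed replicate block and the mixed model, and with 6 of the 16 mice left out in turn. The fitted difference of NOD/ShiLtJ from C57BL/6J was -0.38 in hindbrain and 0.08 in forebrain.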

How the results depend on the processing

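The 9 genes stayed called lower in hindbrain than in forebrain and than in whole brain under every alternative run, and no alternative called a gene for clozapine or for the interaction of strain with whole brain. The count for whole brain against forebrain (4) was 0 on the 1.0ST arrays, with clusters of a mean above 5, with clusters of 1 symbol and in C57BL/6J alone, 2 in NOD/ShiLtJ alone, and 9 without surrogate variables, with unrefined ones and with centred arrays. With 1 mouse left out it ran between 0 and 8, at 7 without mouse DD656, 1 without DD658, 0 without DD676 and 8 without BB702 or without BB703. The count between strains in forebrain (0) was 1 on the 1.0ST arrays and 2 in forebrains alone. In hindbrain (3) it was 1 on the 1.0ST arrays, 5 with unrefined surrogate variables, and 2 to 4 with 1 mouse left out. In whole brain (0) it was 1 on the 1.0ST arrays, with unrefined surrogate variables and with a mean above 5, and 0 to 1 with 1 mouse left out (1 without DD658, DD675 or BB707). In the paired analysis, no replicate block left 3 of the 4 calls of whole brain against forebrain (without Bcl11b), and the interaction of strain with hindbrain (1, Lhx2) was 0 with no replicate block and 0 with the mouse as a fixed replicate block, and neither fit moved another call of the 9 genes. It was also 0 on the 1.0ST arrays, without surrogate variables, with centred arrays, with the hour of kill, with the Benjamini-Hochberg adjustment and in the mixed model, 2 with a mean above 5, and 0 to 2 with 1 mouse left out (0 without DD658, DD659, DD677, BB686, BB703 or BB708, and 2 without DD657 or DD676). The fixed block gives no strain or treatment difference. The number of genes that followed Tbr1 in hindbrain (7 of 8) was 3 in C57BL/6J alone, 0 in NOD/ShiLtJ alone, 3 without the 2 farthest mice and 0 on the 1.0ST arrays, and it was 3 in forebrains and 2 in whole brains without mouse DD656, alternatives chosen after seeing the data. The counts called in the lists of other transcription factors (25) and projection neuron genes (16) ran between 17 and 30 and between 11 and 17 under the other settings, and between 22 and 29 and between 12 and 18 with 1 mouse left out. Some fitted differences changed sign: Tbr1 (-0.15) and Fezf2 (-0.16) between strains in forebrains alone, Emx2 between strains in hindbrain on the 1.0ST arrays (0.0871), and, for hindbrain against forebrain, Neurog2 without surrogate variables (-0.0851), Prox1 on the 1.0ST arrays (-0.0831) and without mouse DD676 (-0.0136, against a highest value with 1 mouse left out of 0.433), and Ntsr1 without mouse DD656 (-0.102) or BB702 (-0.136, against a highest value of 0.0728). The cause was not tested.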
